A study of Mus musculus with 6 samples.

Results

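The proteasome genes described here were the 43 protein-coding mouse genes whose symbols run from Psma, Psmb, Psmc, Psmd or Psme to a number, taken from 54532 Ensembl gene IDs measured by RNAseq in mammary tumors. Of these, 41 had a mean of at least 0.5 FPKM over the 6 tumors and were tested together with all other genes above that level, 15069 in total. FPKM divides the fragments of a gene by its length and by the depth of the library, so levels of different genes can be set side by side on it. Psma8, an alpha subunit of the germ line, and Psmb11, the catalytic subunit of the thymus, did not reach that level, with at most 0.215 and 0.0352 FPKM in any tumor.

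The tumors came from NeuT/ATTAC mice, and 3 were from the IgG arm and 3 from the anti-PD-1 mAb arm, each with its own library. These mice carry MMTV-NeuT, in which the MMTV promoter drives Erbb2 in the mammary gland, and FAT-ATTAC, a transgene by which AP20187 ablates adipose tissue and induces fibrosis. FAT-ATTAC began on a C57BL/6 background and was crossed into FVB before the cross with MMTV-NeuT. In both groups AP20187 was injected at 0.4 mg/kg from an age of 6 weeks, which the labels describe as biweekly and the methods of the study as triweekly. The antibody was given from 8 weeks of age at 100 μg, as anti-PD-1 mAb or an isotype-matched IgG, so the groups differed by labels in the antibody alone. No tumor without AP20187 was analysed here. The labels do not say that each library came from a separate mouse, and a legend of the study describes RNA of each group as pooled, so the p-values measure the spread between these 6 libraries, which may be technical.

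Between 22009839 and 25596137 reads per tumor were implied by the value of 1 read, and the median-of-ratios factors lay between 1.00 and 1.01. The proteasome genes were well covered, with 522 to 9053 reads per gene and tumor for the 39 tested members whose values were whole multiples of 1 read. The values of Psmb8 and Psmb9 were not, and the reads behind them are unknown. The tissue label was checked on epithelial markers, and Epcam lay between 690 and 1150 FPKM, Krt8 between 431 and 1041 FPKM and Erbb2 between 20.3 and 31.4 FPKM. In bulk tumors, fewer cells of a type and less RNA per cell cannot be told apart.

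The proteasome degrades ubiquitin-tagged proteins in a barrel, the 20S core, whose outer rings are built of alpha subunits and whose inner rings are built of beta subunits, some of which carry the catalytic sites. The 19S regulatory particle caps the core: its base unfolds proteins with a ring of ATPases, and its lid removes the ubiquitin chain. Under interferon-gamma, newly made cores take up Psmb9, Psmb10 and Psmb8 in place of Psmb6, Psmb7 and Psmb5, which makes the immunoproteasome, an enzyme known for cutting peptides that are loaded onto MHC class I, and the PA28 cap made of Psme1 and Psme2 is induced with it.

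No proteasome gene passed the test between anti-PD-1 and IgG tumors at an adjusted p under 0.05 (limma, 0 of 41), and neither did any other gene (0.0% of 15069), also with voom on the recovered reads. The lowest adjusted p among the members was 0.344. At an unadjusted p under 0.05, 8 of 41 members (19.5%) had the higher level in the anti-PD-1 tumors, against 6.22% of all genes tested, and no member had the lower one, against 6.05%. Among the 5155 genes with a mean of at least 10 FPKM, a level that all tested members but Psmd9 reached, the share with the higher level was 10.7% and that with the lower level 5.82%. Under quantile normalization the higher members numbered 3 (7.32%), against 5.59% of all genes, and 1 member was lower (2.44%, against 6.04%). The count of 8 also depended on single tumors: it was 9 (22.0%, against 8.41% of all genes) without IgG replicate 1, 5 (12.2%, against 5.78%) without anti-PD-1 replicate 1 and 4 (9.76%, against 3.31% to 5.46%) without each of the other tumors in turn.

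By sign, 33 of 41 members (80.5%) had a higher mean log2 level in the anti-PD-1 tumors, against 50.8% of all genes tested and 59.2% of those with at least 10 FPKM, and under quantile normalization the number was 32, with Psma3 on the other side. The median log2 fold change of anti-PD-1 over IgG was 0.25 over the members, 0.01 over all genes tested and 0.08 over the genes with at least 10 FPKM. In 14 members (34.1%) the lowest anti-PD-1 tumor exceeded the highest IgG tumor, against 9.3% of all genes and 15.2% of those with at least 10 FPKM, and in 1 member (2.44%), Psma4, every anti-PD-1 tumor lay below, against 8.75% and 7.31%. The count of 14 was 12 under quantile normalization (29.3%, against 8.6% of all genes) and 13 with voom (31.7%, against 8.58%). It became 22 (53.7%) without IgG replicate 1, where 17.7% of all genes were separate on that side. The count was also 22 without anti-PD-1 replicate 3, where 14.3% were.

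**Figure D1:**
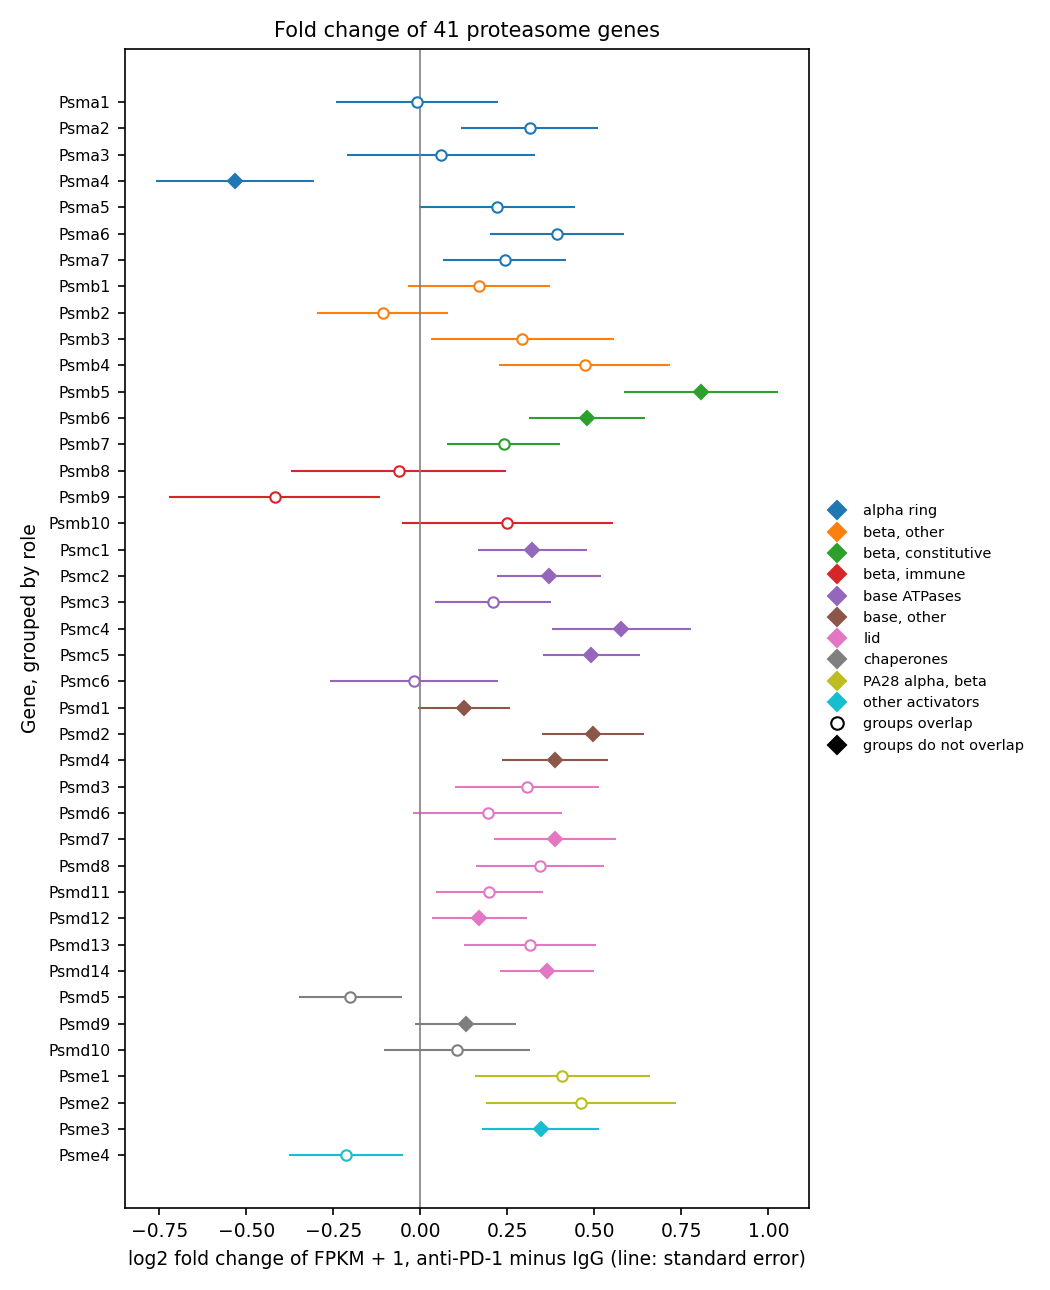
Log2 fold change of anti-PD-1 over IgG tumors for each of the 41 tested proteasome genes (horizontal axis, on log2(FPKM + 1)), with bars of 1 standard error, grouped by the role of the subunit. The values run from -0.53 for Psma4 to 0.81 for Psmb5, and 33 of the 41 points lie to the right of 0, 32 under quantile normalization.

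The catalytic subunits of the constitutive core came first. Psmb5 carries the chymotrypsin-like site and lies on chromosome 14 from 54614119 to 54618022 on the minus strand (GRCm38, ENSMUSG00000022193). Its level was 59.1, 43.3 and 39.2 FPKM in the IgG tumors, given here and throughout in the order of replicates 1 to 3, and 74.2, 102 and 72.0 FPKM in the anti-PD-1 tumors. All anti-PD-1 tumors lay above all IgG tumors, with anti-PD-1 replicate 2 the highest. The means were 47.2 ± 10.5 and 82.8 ± 16.9 FPKM (SD, n = 3 each), which is a log2 fold change of 0.81 (SE 0.22, limma adjusted p = 0.344), the farthest from 0 of all members. It lay between 0.65 and 0.98 when single tumors were left out.

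Psmb6 carries the caspase-like site and lies on chromosome 11 from 70525367 to 70527858 on the plus strand (ENSMUSG00000018286). It was measured at 72.1, 58.0 and 55.6 FPKM in the IgG tumors and at 81.2, 92.7 and 83.9 FPKM in the anti-PD-1 tumors. The groups did not overlap here either, and the log2 fold change was 0.48 (SE 0.17, limma adjusted p = 0.365). Psmb7, which carries the trypsin-like site, lies on chromosome 2 from 38588036 to 38644087 on the minus strand (ENSMUSG00000026750) and had 38.3, 30.8 and 31.9 FPKM in the IgG tumors against 36.0, 44.5 and 38.9 FPKM in the anti-PD-1 tumors. IgG replicate 1 lay above anti-PD-1 replicate 1, so the groups overlapped, and the log2 fold change of 0.24 (SE 0.16, limma adjusted p = 0.573) was the smallest of the constitutive sites. Psmb7 overlaps Nek6 on the opposite strand, and strand-specific counting is not stated in the sources used here.

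The immune counterparts spread more widely within groups. Psmb8, which replaces Psmb5, lies in the MHC region of chromosome 17 from 34197721 to 34201454 on the plus strand (ENSMUSG00000024338). Its level was 42.5, 61.9 and 40.9 FPKM in the IgG tumors and 31.3, 69.5 and 42.7 FPKM in the anti-PD-1 tumors. The lowest and the highest tumor were both in the anti-PD-1 group. The means of 48.4 ± 11.7 and 47.8 ± 19.6 FPKM (SD, n = 3 each) gave a log2 fold change of -0.06 (SE 0.31, limma adjusted p = 0.951), and its sign turned when anti-PD-1 replicate 1 (0.20) or IgG replicate 2 (0.12) was left out.

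Psmb9, which replaces Psmb6, lies beside it from 34181987 to 34187764 on the minus strand (ENSMUSG00000096727). It had 10.9, 24.8 and 19.7 FPKM in the IgG tumors and 10.3, 15.5 and 13.1 FPKM in the anti-PD-1 tumors. IgG replicates 2 and 3 lay above all anti-PD-1 tumors, while IgG replicate 1 lay near the lowest of them. The log2 fold change was -0.42 (SE 0.30, limma adjusted p = 0.5998), and with single tumors left out it was lowest without IgG replicate 1 (-0.74) and highest without IgG replicate 2 (-0.19). The gene's 5′ end overlaps that of Tap1, the peptide transporter on the opposite strand, which had a mean of 23.5 FPKM, so reads of the shared stretch may have been split between them.

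Psmb10, which replaces Psmb7, lies on chromosome 8 from 105935735 to 105938444 on the minus strand (ENSMUSG00000031897). It was measured at 17.9, 39.5 and 19.97 FPKM in the IgG tumors and at 24.6, 34.0 and 28.8 FPKM in the anti-PD-1 tumors. IgG replicate 2 was above every anti-PD-1 tumor and the other IgG tumors were below them. The log2 fold change was 0.25 (SE 0.30, limma adjusted p = 0.763), and with single tumors left out it was lowest without IgG replicate 1 (0.041) and highest without IgG replicate 2 (0.58). The median within-group SD of log2 values was 0.45 over the immune catalytic genes, 0.16 over their constitutive counterparts and 0.27 over all genes tested. Among the constitutive genes, Psmb5 had 0.29. The spread of Psmb9 and Psmb10 lay mostly in the IgG tumors, with SDs of 7.03 and 11.9 FPKM. In the anti-PD-1 tumors these SDs were 2.58 and 4.73 FPKM. Psmb8 spread more in the anti-PD-1 tumors (SD 19.6 against 11.7 FPKM).

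**Figure D2:**
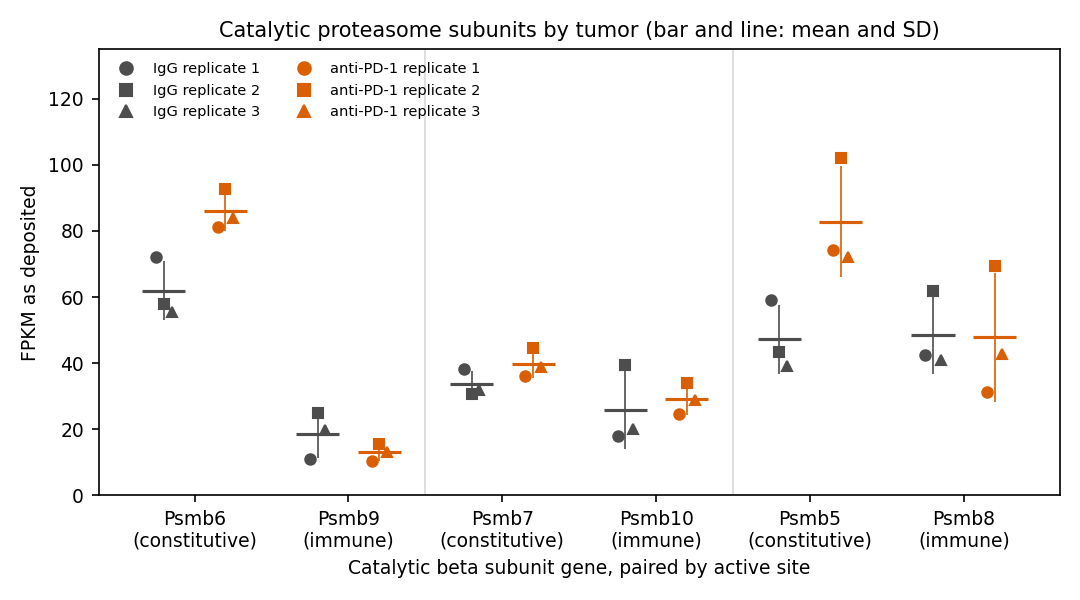
FPKM of the 6 catalytic beta subunit genes (vertical axis) in each tumor, constitutive and immune genes paired by active site, with a marker per replicate and a bar and line for the group mean and SD. Psmb5 and Psmb6 show separate groups, with 39.2 to 59.1 against 72.0 to 102 FPKM for Psmb5, and the groups overlap for Psmb7, Psmb8, Psmb9 and Psmb10.

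For each active site, the RNA level of the immune gene was set against that of the constitutive gene within each tumor. This ratio of FPKM needs no scaling between tumors. It does not measure which subunit fills the active sites. The ratio of Psmb8 to Psmb5 was 0.720, 1.43 and 1.04 in the IgG tumors and 0.422, 0.679 and 0.593 in the anti-PD-1 tumors. Every IgG tumor lay above every anti-PD-1 tumor. The difference was -0.88 on the log2 scale (SE 0.35, exact two-sided permutation p = 0.1, n = 3 each), and 0.1 is the smallest p that 3 tumors against 3 can give. The mean level of Psmb8 was 48.4 and 47.8 FPKM in the groups, and that of Psmb5 was 47.2 and 82.8 FPKM.

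The ratio of Psmb9 to Psmb6 was 0.151, 0.428 and 0.354 in the IgG tumors and 0.127, 0.167 and 0.156 in the anti-PD-1 tumors. IgG replicate 1 fell within the anti-PD-1 range, and the difference was -0.93 on the log2 scale (SE 0.48, exact two-sided permutation p = 0.3, n = 3 each). The ratio of Psmb10 to Psmb7 was 0.468, 1.28 and 0.626 in the IgG tumors and 0.683, 0.765 and 0.740 in the anti-PD-1 tumors. Here the IgG tumors lay on both sides of the anti-PD-1 tumors, with a difference of 0.02 (SE 0.43, exact two-sided permutation p = 1.0, n = 3 each). In the sum of the 6 catalytic genes, the immune forms took 29.6%, 48.8% and 38.9% of the FPKM in the IgG tumors and 25.7%, 33.2% and 30.3% in the anti-PD-1 tumors. The shares overlapped through IgG replicate 1. The constitutive gene of the caspase-like site had the higher FPKM in all 6 tumors. FPKM was higher for Psmb8 than for Psmb5 in IgG replicates 2 and 3, and for Psmb10 than for Psmb7 in IgG replicate 2. The values of Psmb8 and Psmb9 were not whole multiples of 1 read, so the reads behind these ratios are not all known.

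**Figure D3:**
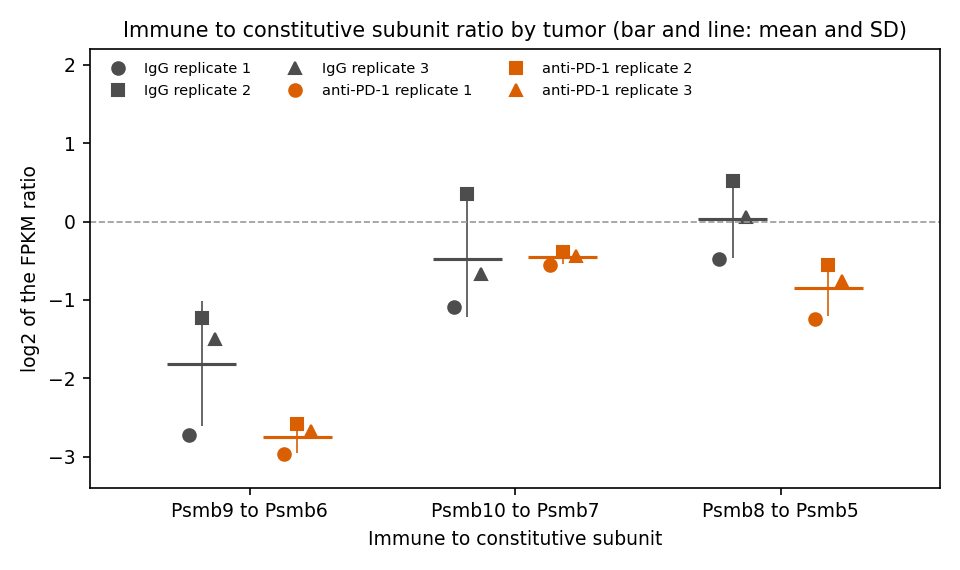
Log2 of the FPKM ratio of each immune catalytic gene to its constitutive counterpart (vertical axis) in each tumor, with a bar and line for the group mean and SD and a dashed line at equal levels. The groups are separate for Psmb8 to Psmb5, where the linear ratio is 0.720 to 1.43 in IgG and 0.422 to 0.679 in anti-PD-1 tumors, and they overlap for the other pairs.

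The sequences around the starts of the catalytic genes are shown because proteasome genes are known to be driven by NRF1 (Nfe2l1) through antioxidant response elements, and immune subunits through interferon elements. RefSeq promoter windows (GRCm38.p6, 250 bases before to 50 bases after the start) were found for 36 of the 43 members, and for 27025 genes in all. Capitals mark the antioxidant response element core TGACNNNGC in Psmb5 and Psmb6, the interferon-gamma activated site TTCNNNGAA in Psmb8 and the CCAAT box, on the minus strand of the gene, in Psmb9. The marked letters begin 47 bases before the RefSeq start in Psmb5, 9 bases before it in Psmb6, 97 bases before it in Psmb8 and 8 bases before it in Psmb9. For Psmb8 and Psmb9 only 29 bases around the motif are shown, because their windows held no long run free of annotated exons. Both stretches lie inside the gene coordinates given above, downstream of the annotated start of the gene. They are therefore not sequence upstream of the whole gene. All stretches are written 5′ to 3′ on the strand of the gene.
Psmb5, chr14:54618023-54618172, minus strand: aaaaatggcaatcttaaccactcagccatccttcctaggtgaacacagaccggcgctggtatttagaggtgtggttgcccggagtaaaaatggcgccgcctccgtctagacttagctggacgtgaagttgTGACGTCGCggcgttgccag
Psmb6, chr11:70525207-70525356, plus strand: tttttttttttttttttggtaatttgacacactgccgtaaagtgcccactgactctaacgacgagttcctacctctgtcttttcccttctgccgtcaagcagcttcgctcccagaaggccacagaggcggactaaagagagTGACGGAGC
Psmb8, chr17:34198088-34198116, plus strand: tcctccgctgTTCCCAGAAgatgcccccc
Psmb9, chr17:34187322-34187350, minus strand: gcgcagccgctgATTGGaaagccgagccc

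The antioxidant response element core, searched on both strands, was in the windows of 6 of 36 members (16.7%) and in 12.5% of all windows. The members were Psmb5, Psmb6, Psmc6, Psmd9, Psmd12 and Psme4, and of the 8 members with an unadjusted p under 0.05 they included 2. The interferon-stimulated response element core (GAAA and, 2 bases on, GAAA again) was in 4 members (11.1%) and in 3.49% of all windows, namely in Psmb3, Psmd4, Psmd9 and Psme1. The interferon-gamma activated site was in Psmb8 and Psmd2 (5.56%) and in 8.47% of all windows, and CCAAT was in 14 members (38.9%) and in 37.9% of all windows. None of these motifs was in the window of Psmb10. Psmb7 was named in no window. A match says only that these letters are there, and binding was not measured.

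The rest of the 20S core held genes on both sides of 0. Of the 7 alpha ring genes, 5 had positive and 2 negative log2 fold changes, with a median of 0.22 and none at an unadjusted p under 0.05. Psma6 had the largest, at 118.8, 96.3 and 82.4 FPKM in the IgG tumors and 140.4, 131.4 and 115.2 FPKM in the anti-PD-1 tumors. IgG replicate 1 lay above the lowest anti-PD-1 tumor, and the log2 fold change was 0.39 (SE 0.19, limma adjusted p = 0.446).

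Psma4 stood on the other side of the ring, at 49.7, 79.6 and 51.1 FPKM in the IgG tumors and 43.3, 43.8 and 34.1 FPKM in the anti-PD-1 tumors. All anti-PD-1 tumors lay below all IgG tumors, and IgG replicate 2 was the highest. Its log2 fold change was -0.53 (SE 0.23, limma adjusted p = 0.408), and -0.32 without IgG replicate 2. Psma4 lies on chromosome 9, where the median log2 fold change of the 798 genes tested was -0.36, and Psmb2 (log2 fold change -0.11) lies on chromosome 4, where that of 926 genes was -0.40. The part of these chromosome-wide values in the levels of Psma4 and Psmb2 was not tested. Without both genes, 33 of 39 members (84.6%) had the higher mean, with a median log2 fold change of 0.29, against 55.1% and 0.04 for all genes off these chromosomes and 64.3% and 0.11 for those of them with at least 10 FPKM.

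Of the non-catalytic beta subunits, which complete the inner rings, Psmb1, Psmb3 and Psmb4 had log2 fold changes of 0.17, 0.29 and 0.47. Without IgG replicate 3 these were 0.008, 0.011 and 0.28, and without IgG replicate 1 they were 0.28, 0.49 and 0.63. Psmb4 was measured at 104.7, 87.6 and 64.3 FPKM in the IgG tumors and at 104.5, 148.8 and 101.1 FPKM in the anti-PD-1 tumors, so that IgG replicate 1 lay within the anti-PD-1 range (limma adjusted p = 0.467). Across the 14 subunits of the constitutive core the highest level in a tumor was 3.03 to 3.90 times the lowest. The products of these genes join in equal numbers in the finished barrel.

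The 19S regulatory particle was the more even group. Of its 17 genes, 16 had a higher mean in the anti-PD-1 tumors, 6 at an unadjusted p under 0.05, and the groups did not overlap in 10. Over all genes tested, 50.8% had the higher mean, 6.22% at an unadjusted p under 0.05, and 9.3% were separate on that side, and among genes with at least 10 FPKM these shares were 59.2%, 10.7% and 15.2%. The count of 6 (35.3%) was 2 under quantile normalization (11.8%, against 5.59% of all genes), 5 without IgG replicate 1 (29.4%, against 8.41%), 2 without IgG replicate 2 (11.8%, against 3.31%) and 3 without each of the other tumors in turn (17.6%, against 4.38% to 5.78%). The count of 10 without overlap (58.8%) was 8 under quantile normalization (47.1%, against 8.6% of all genes). It was 10 to 14 when single tumors were left out (58.8% to 82.4%, against 11.5% to 17.7%). The median log2 fold change of the 17 genes was 0.32. Their median within-group SD of log2 values was 0.13, against 0.27 both in the 14 subunits of the core and over all genes.

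Among the 6 ATPases of the base, Psmc5 had 57.9, 56.6 and 54.2 FPKM in the IgG tumors and 82.9, 78.3 and 76.4 FPKM in the anti-PD-1 tumors. The groups were far apart beside a narrow spread in each, with means of 56.2 ± 1.90 and 79.2 ± 3.31 FPKM (SD, n = 3 each). The log2 fold change was 0.49 (SE 0.14, limma adjusted p = 0.344).

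Psmc4 was measured at 43.1, 32.7 and 26.4 FPKM in the IgG tumors and at 48.1, 50.4 and 52.2 FPKM in the anti-PD-1 tumors. The IgG tumors spread more than the anti-PD-1 tumors and lay below them, and the log2 fold change was 0.58 (SE 0.20, limma adjusted p = 0.365). Psmc2 had 20.1, 19.8 and 17.7 FPKM against 25.5, 27.3 and 22.5 FPKM, again without overlap (log2 fold change 0.37, limma adjusted p = 0.395). Psmc1 had 80.0, 71.8 and 66.3 FPKM against 86.9, 99.3 and 86.0 FPKM, with separate groups (log2 fold change 0.32, limma adjusted p = 0.444). Psmc3 overlapped at a log2 fold change of 0.21. Psmc6 was the exception, at 70.3, 59.5 and 38.9 FPKM in the IgG tumors and 49.0, 61.9 and 51.3 FPKM in the anti-PD-1 tumors, with all anti-PD-1 tumors inside the IgG range and a log2 fold change of -0.02 (SE 0.24).

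The base also holds the scaffold subunits Psmd1 and Psmd2 and the ubiquitin receptor Psmd4. Psmd2 was measured at 63.8, 57.6 and 59.1 FPKM in the IgG tumors and at 82.6, 92.5 and 80.3 FPKM in the anti-PD-1 tumors. The groups were apart by more than the spread within either, and the log2 fold change was 0.50 (SE 0.15, limma adjusted p = 0.346). Psmd4 had 43.7, 39.5 and 34.7 FPKM against 48.4, 52.1 and 53.5 FPKM (log2 fold change 0.39, limma adjusted p = 0.390). Psmd1 had 15.3, 15.6 and 15.9 FPKM against 17.5, 17.3 and 16.3 FPKM, separate groups with a log2 fold change of 0.13.

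All 8 lid genes had a higher mean in the anti-PD-1 tumors, and their median log2 fold change was 0.31. Psmd14, the enzyme that cuts the ubiquitin chain off, was measured at 27.3, 25.8 and 25.4 FPKM in the IgG tumors and at 32.6, 34.9 and 34.2 FPKM in the anti-PD-1 tumors. The groups were separate with little spread in each, and the log2 fold change was 0.36 (SE 0.13, limma adjusted p = 0.374). Psmd7, its inactive partner, had 44.8, 50.7 and 48.4 FPKM against 69.3, 51.3 and 69.5 FPKM, where anti-PD-1 replicate 2 lay just above the highest IgG tumor (log2 fold change 0.39, limma adjusted p = 0.426). Psmd12 had 37.7, 36.7 and 36.0 FPKM against 40.5, 43.6 and 40.2 FPKM, also separate (log2 fold change 0.17, limma adjusted p = 0.625). The groups overlapped in Psmd3, Psmd6, Psmd8, Psmd11 and Psmd13, with log2 fold changes of 0.19 to 0.34, and that of Psmd6 turned to -0.03 without IgG replicate 3.

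The chaperones that assemble the base and leave it were Psmd5, Psmd9 and Psmd10. Psmd9 had 4.62, 4.37 and 4.08 FPKM in the IgG tumors and 5.08, 4.80 and 4.65 FPKM in the anti-PD-1 tumors, with separate groups and a log2 fold change of 0.13. Psmd5 had 11.96, 13.99 and 13.5 FPKM against 10.6, 12.4 and 10.8 FPKM, with 1 IgG tumor inside the anti-PD-1 range and a log2 fold change of -0.20 (limma adjusted p = 0.606). Psmd10 overlapped at 0.11.

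**Figure D4:**
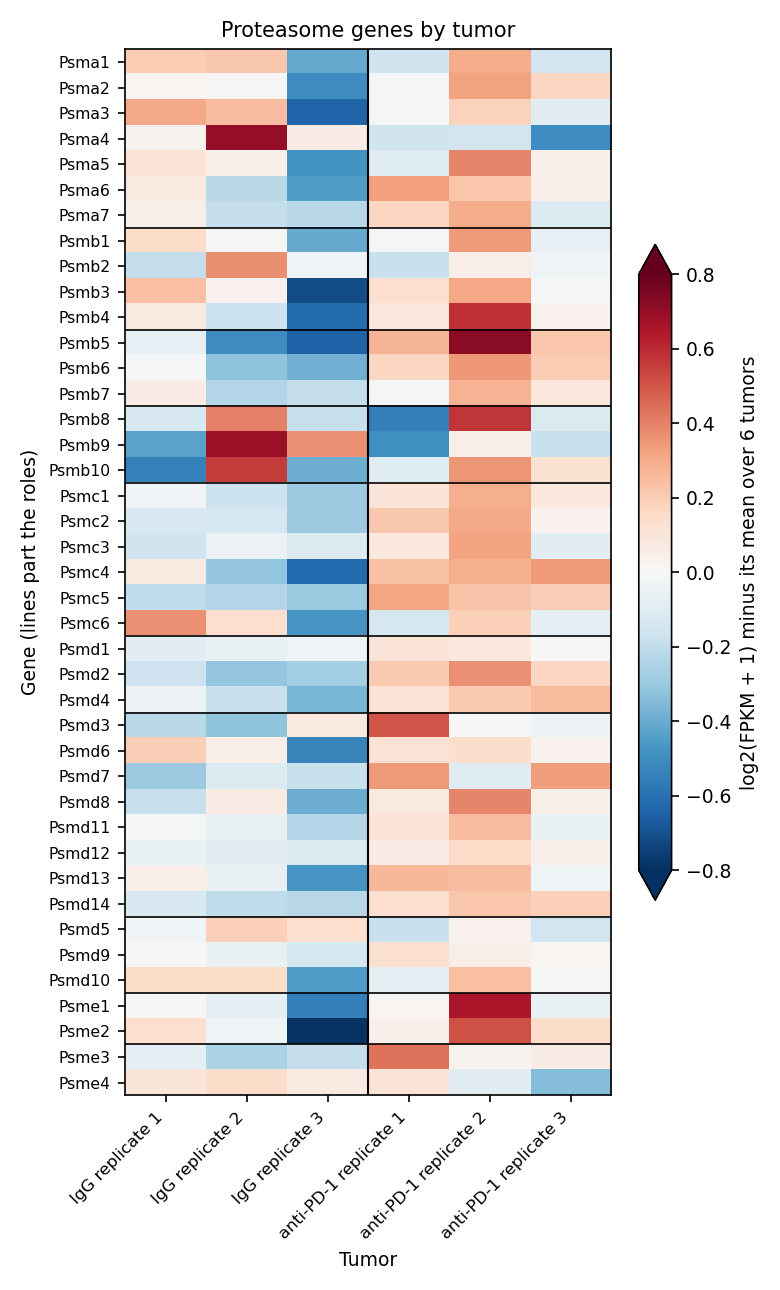
Log2 level of each of the 41 tested proteasome genes in each tumor relative to the mean over the 6 tumors, ordered by role. The median over all members was lowest in IgG replicate 3 (-0.30) and highest in anti-PD-1 replicate 2 (0.24), while Psmb9 and Psmb10 were highest in IgG replicate 2 (0.69 and 0.56).

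Single tumors also differed in the general level of the members. The median log2 level over all members, relative to the 6-tumor mean of each gene, was -0.01, -0.06 and -0.30 in the IgG tumors and 0.11, 0.24 and 0.03 in the anti-PD-1 tumors. IgG replicate 3 lay lowest, and the median log2 fold change of all members was 0.16 without it and 0.33 without IgG replicate 1. In the 14 subunits of the core the medians were 0.07, 0.01 and -0.43 against -0.01, 0.30 and 0.01, which overlapped, and in the 19S particle they were -0.09, -0.11 and -0.29 against 0.12, 0.23 and 0.04, which did not.

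The PA28 genes, which are induced by interferon-gamma like the immune subunits, had higher means in the anti-PD-1 tumors with wide overlap. Psme1 was measured at 62.0, 58.2 and 41.8 FPKM in the IgG tumors and at 61.8, 97.1 and 58.9 FPKM in the anti-PD-1 tumors. Only anti-PD-1 replicate 2 lay above the IgG range, and the log2 fold change was 0.41 (SE 0.25, limma adjusted p = 0.533). It was 0.19 without anti-PD-1 replicate 2 and 0.55 without anti-PD-1 replicate 3. Psme2 had 90.8, 80.8 and 47.4 FPKM against 84.7, 117.7 and 91.4 FPKM, with IgG replicate 3 far below the rest (log2 fold change 0.46, SE 0.27, limma adjusted p = 0.520). The log2 fold change was 0.18 without IgG replicate 3 and 0.64 without IgG replicate 1. The near copy Psme2b had 3.92 to 10.7 FPKM, and reads may be shared with it.

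Of the other activators, Psme3, the nuclear PA28 subunit, had 26.3, 23.1 and 24.1 FPKM in the IgG tumors and 37.6, 28.2 and 28.8 FPKM in the anti-PD-1 tumors. The groups were separate, with anti-PD-1 replicate 1 the highest, and the log2 fold change was 0.35 (SE 0.17, limma adjusted p = 0.442). Psme4, also named PA200, had 18.3, 18.99 and 18.0 FPKM against 18.4, 16.0 and 13.2 FPKM, with a log2 fold change of -0.21 (SE 0.16, limma adjusted p = 0.617) and anti-PD-1 replicate 1 inside the IgG range.

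Of 12 partners of the proteasome outside the symbol rule, 9 had the higher mean in the anti-PD-1 tumors (75.0%, against 50.8% of all genes). The median log2 fold change of these partners was 0.21. At an unadjusted p under 0.05 they were Psmg1, a chaperone of the alpha ring, at 15.8, 15.0 and 12.4 FPKM in the IgG tumors against 18.95, 19.5 and 18.98 FPKM in the anti-PD-1 tumors (log2 fold change 0.40, limma adjusted p = 0.378), and on the other side Ecpas, a proteasome adaptor on chromosome 4, at 9.64, 15.6 and 16.8 against 8.69, 8.80 and 7.61 FPKM (log2 fold change -0.64, limma adjusted p = 0.365). The groups of both were separate. Pomp, the maturation factor of the core, overlapped at 0.28 (limma adjusted p = 0.571).

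Of the 8 genes of the NRF1 axis, 5 had the higher mean (62.5%, against 50.8% of all genes) and 3 the lower. Nfe2l1 itself was measured at 80.6, 68.7 and 65.3 FPKM in the IgG tumors and 76.3, 70.8 and 77.0 FPKM in the anti-PD-1 tumors, which overlapped, with a log2 fold change of 0.07 that turned to -0.09 under quantile normalization. Ddi2, the protease that cleaves NRF1, lies on chromosome 4 and had 15.6, 19.3 and 33.2 FPKM against 10.9, 11.4 and 11.8 FPKM, with separate groups (log2 fold change -0.86, SE 0.27, limma adjusted p = 0.352).

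The interferon-gamma genes gave the levels beside which the immune subunits can be read. Of 8 tested, 7 had the lower mean in the anti-PD-1 tumors, against 7418 of all 15069 genes tested. The median log2 fold change of the 8 was -0.10. Ifng, the cytokine itself, was listed at 0.0351, 0.418 and 0 FPKM in the IgG tumors and at 0 in all anti-PD-1 tumors. Jak1, the receptor kinase, lies on chromosome 4 and had 28.9, 47.3 and 43.8 FPKM against 21.2, 18.9 and 20.9 FPKM, with separate groups (log2 fold change -0.91, SE 0.21, limma adjusted p = 0.344). Irf1, a transcription factor downstream, was measured at 18.98, 26.2 and 18.3 FPKM in the IgG tumors and at 13.3, 24.8 and 20.7 FPKM in the anti-PD-1 tumors, with wide overlap and a log2 fold change of -0.12 whose sign turned without anti-PD-1 replicate 1 (0.12) or IgG replicate 2 (0.02).

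Nlrc5, the transactivator of MHC class I genes, had 2.65, 9.39 and 7.54 FPKM in the IgG tumors and 1.96, 3.11 and 4.04 FPKM in the anti-PD-1 tumors. As with Psmb9, IgG replicates 2 and 3 lay above all anti-PD-1 tumors and IgG replicate 1 lay among them (log2 fold change -0.80, limma adjusted p = 0.462). The log2 fold change of Nlrc5 was -1.25 without IgG replicate 1 and -0.50 without IgG replicate 2. Tap1 had 18.3, 32.8 and 34.0 FPKM against 16.5, 22.2 and 17.3 FPKM, in the same arrangement (log2 fold change -0.54, limma adjusted p = 0.442). That of Tap1 was -0.81 without IgG replicate 1 and -0.39 without IgG replicate 3. Of the 7 peptide loading genes, 4 had the higher mean (57.1%, against 50.8% of all genes) and 3 the lower.

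Across the 6 tumors, each immune catalytic gene was set against Irf1 and the pan-leukocyte gene Ptprc, which are 6 of the 9 relations computed and adjusted together. Psmb8 followed Irf1 with Pearson r = 0.944 (exact permutation p = 0.00972, adjusted over the 9 relations 0.0875) and Spearman rho = 0.943 (exact permutation p = 0.0167, adjusted 0.150), and r was 0.945 without the tumors farthest from the median, IgG replicate 2 and anti-PD-1 replicate 1. For Irf1, Psmb9 had r = 0.676, which was -0.0145 without those tumors and thus rested on them, and Psmb10 had r = 0.651, which was 0.910 without them. Against Ptprc, r was 0.221 for Psmb8, 0.0383 for Psmb9 and 0.525 for Psmb10, and -0.302, -0.103 and -0.161 without the tumors farthest from its median, IgG replicates 2 and 3. None of these relations passed the adjustment, groups of 3 were too few to repeat them within a treatment, and the points share the scaling of their library.

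**Figure D5:**
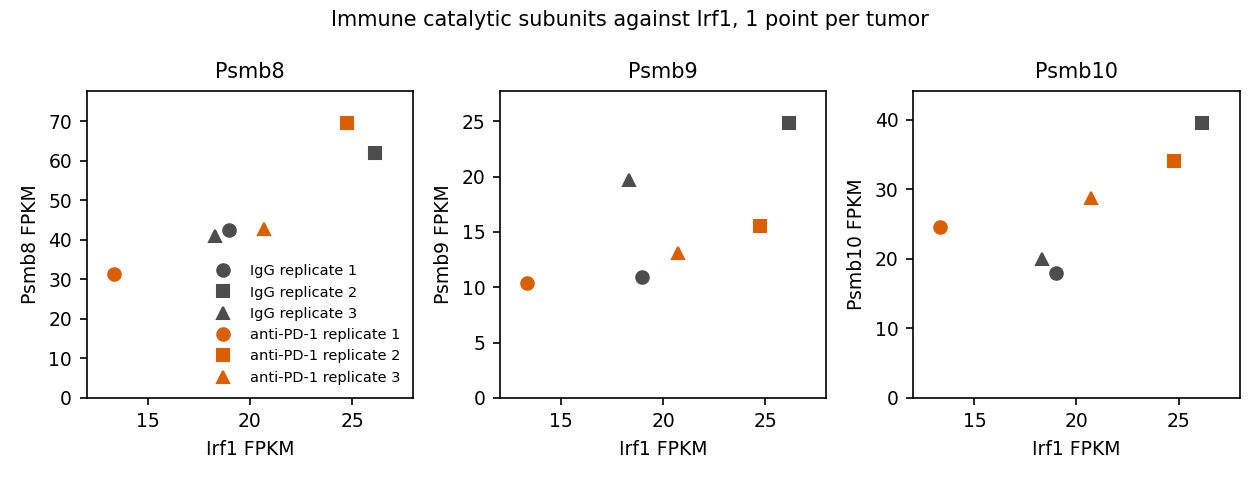
FPKM of Psmb8, Psmb9 and Psmb10 (vertical axes) against FPKM of Irf1 (horizontal axis, starting above 0), with 1 point per tumor. Psmb8 and Irf1 were both lowest in anti-PD-1 replicate 1 (31.3 and 13.3 FPKM), while Psmb9 shows IgG replicate 3 above the other tumors of similar Irf1 level.

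Markers of other cells were measured in the same tumors. The summed level of the 5 pan-leukocyte markers was 30 to 57.4 FPKM in the IgG tumors and 33.1 to 48.4 FPKM in the anti-PD-1 tumors, and Ptprc had a log2 fold change of 0.03 (limma adjusted p = 0.965). None of the 6 T cell markers and none of the 4 B cell markers reached the level for testing. The T cell sum was 1.08, 4.41 and 1.5 FPKM in the IgG tumors and 0.807, 0.849 and 1.49 FPKM in the anti-PD-1 tumors, with Cd3d and Cd3e at 0 in anti-PD-1 replicate 2, and the B cell sum was 0.157 to 3.38 and 0.224 to 0.806 FPKM. IgG replicate 2, the tumor with the highest T and B cell sums, also had the highest Psmb9 and Psmb10, and Psmb8 was highest in anti-PD-1 replicate 2. Their part in these levels was not tested.

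The 5 macrophage markers summed to 133 to 226 FPKM in the IgG tumors and 172 to 270 FPKM in the anti-PD-1 tumors, with log2 fold changes of 0.01 for Adgre1, 0.11 for Csf1r, 0.34 for C1qa, 0.49 for Mrc1 and 0.76 for Cd68. The groups overlapped in all of them but Cd68, a lysosomal protein of macrophages, which was at 18.3, 15.2 and 13.8 against 22.1, 30.7 and 29.3 FPKM (limma adjusted p = 0.344). Adgre1, Csf1r and Mrc1 were lowest in anti-PD-1 replicate 2. The 5 dendritic cell markers, of which 2 were tested, summed to 3.84 to 7.41 FPKM and 5.02 to 7.65 FPKM. The 6 epithelial markers summed to 1910 to 2650 FPKM and 2520 to 3650 FPKM, and the 5 fibroblast markers to 49.7 to 158 FPKM and 57.6 to 214 FPKM. The epithelial markers did not move together. Epcam and Erbb2 were higher in every anti-PD-1 tumor than in any IgG tumor. The groups overlapped in Krt8, Krt18 and Cdh1, with log2 fold changes of 0.41, 0.34 and -0.34. Krt19 was lower in every anti-PD-1 tumor, with 77.9 FPKM in IgG replicate 2 and 1.70 to 7.84 FPKM in the others (log2 fold change -2.03, limma adjusted p = 0.404). The part of cell makeup in the proteasome values was not tested.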

How the data were processed

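Per the labels and the methods of the study, reads were checked with FastQC 0.11.9, trimmed with cutadapt 3.5, and aligned to mm10 and counted with RSEM 1.3.1 on a Bowtie2 2.4.1 index, and the authors tested counts with DESeq2 1.36.0 in R 4.1. The authors deposited FPKM, and how it was made is not given in the sources used here.

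Gene IDs were matched to GENCODE M21 (GRCm38), which named 54495 of 54532. FPKM times exon length fell on whole reads (within 0.1 of a whole number) for 96.8% to 97.32% of detected values. After division by median-of-ratios factors, log2(FPKM + 1) was compared for genes averaging at least 0.5 FPKM by limma 3.58.1 under R 4.3.3 (eBayes with an intensity trend, two-sided, Benjamini-Hochberg adjustment over all genes tested), in place of DESeq2, since the values are not counts. Adding 1 understates the fold change of low genes. Ratios used no added value. Ratios and relations were tested with exact permutations in Python 3.11.15 with scipy 1.17.1. The fitting code was tested on simulated data.

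The members, gene lists and tests were chosen with earlier results of these data known. Named with values were the catalytic and PA28 genes, other members with an unadjusted p under 0.05 or separate groups, the extremes of other roles, list genes with an unadjusted p under 0.05, and Irf1, Nlrc5, Tap1, Ifng, Ptprc, Nfe2l1 and Pomp. A further item named by this rule is not reported here. The lists held proteasome partners, the NRF1 axis, interferon-gamma signaling, peptide loading, and pan-leukocyte, T cell, B cell, macrophage, dendritic cell, epithelial and fibroblast markers. Alternatives were 0.1 added, no filter, a mean FPKM of at least 2, no scaling, quantile normalization, eBayes without the trend, limma voom on recovered reads (rounded where not whole), a replicate block, and the omission of each tumor in turn.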

Additional observations from a re-analysis of the deposited data

How the results depend on the processing

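No proteasome gene reached an adjusted p under 0.05 under any alternative tried, and the lowest adjusted p of a member ran from 0.113, without IgG replicate 1, where 12 genes in all passed, to 0.766. The number of members higher at an unadjusted p under 0.05, 8 in the report, was 3 under quantile normalization (7.32%, against 5.59% of all genes). It was 4 to 9 when single tumors were left out (9.76% to 22.0%, against 3.31% to 8.41% of all genes). The number lower, 0 in the report, was 1 with 0.1 added, with FPKM as deposited, under quantile normalization and with voom (2.44%, against 6.04% to 6.45% of all genes). It was 0 to 2 when single tumors were left out (0.0% to 4.88%, against 3.05% to 9.41%). When single tumors were left out, members without overlap numbered 14 to 22 on the higher side (34.1% to 53.7%, against 11.5% to 17.7% of all genes). On the lower side they numbered 1 to 3 (2.44% to 7.32%, against 11.5% to 17.8%). Under quantile normalization the higher side held 12 (29.3%, against 8.6%) and the lower side 2 (4.88%, against 8.78%). With voom the higher side held 13 (31.7%, against 8.58%). Quantile normalization also moved the median log2 fold change of the members from 0.25 to 0.17. That of genes with at least 10 FPKM moved from 0.08 to 0.02. The difference for Psmb8 to Psmb5 ran from -1.14 to -0.64 and that for Psmb9 to Psmb6 from -1.38 to -0.63 when single tumors were left out, and that for Psmb10 to Psmb7 ran from -0.30 to 0.43 and so changed sign. The causes were not tested.

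With the replicate number as a block, 5 members, 3 of them of the 19S particle, were higher (12.2% of members and 17.6% of the 19S genes, against 6.09% of all genes) and 1 was lower (2.44%, against 5.36%) at an unadjusted p under 0.05. The labels give the number no meaning beyond the name, the deviations of same-numbered tumors correlated at -0.164, 0.005 and 0.194, and not every tumor correlated best with its own number.

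Of the 41 members, 34 kept their sign under all 14 alternatives. With single tumors left out, the log2 fold change ran from -0.22 to 0.090 for Psma1, -0.25 to 0.23 for Psma3, -0.23 to 0.042 for Psmb2, -0.36 to 0.20 for Psmb8, -0.26 to 0.16 for Psmc6, -0.026 to 0.34 for Psmd6, -0.093 to 0.20 for Psmd10, -0.30 to 0.12 for Irf1 and -0.12 to 0.15 for Ptprc. Under quantile normalization it was -0.023 for Psma3 and -0.088 for Nfe2l1. With 3 tumors per group, a difference within the spread between tumors was not detectable.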

Other observations

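Of the chaperones that assemble the alpha ring, Psmg3 and Psmg4 separated the groups, as did Psmg1, while Psmg2 overlapped (log2 fold change 0.25, limma adjusted p = 0.607). Of all genes tested, 9.3% were separate with the anti-PD-1 tumors higher, and of those with at least 10 FPKM 15.2% were. Psmg3 had 2.32, 2.56 and 2.41 FPKM in the IgG tumors and 3.38, 3.45 and 3.17 FPKM in the anti-PD-1 tumors, and Psmg4 had 22.8, 14.6 and 22.7 FPKM against 26.6, 31.3 and 25.3 FPKM. Anti-PD-1 lay above IgG in both, at log2 fold changes of 0.34 (limma adjusted p = 0.421) and 0.47 (limma adjusted p = 0.416). B2m, the light chain of MHC class I, had 1655, 4386 and 2687 FPKM in the IgG tumors and 1009, 1672 and 1626 FPKM in the anti-PD-1 tumors. IgG replicates 2 and 3 lay above all anti-PD-1 tumors and IgG replicate 1 lay among them, as for Psmb9, Nlrc5 and Tap1. Its log2 fold change was -0.94 (SE 0.42, limma adjusted p = 0.420), -1.29 without IgG replicate 1 and -0.59 without IgG replicate 2. Psmg2, Psmg3, Psmg4 and B2m are listed genes that were singled out after their values were seen.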
